A study of Mus musculus with 661 samples.

Results

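Small leucine-rich proteoglycans are secreted matrix proteins whose curved repeat domain binds collagen fibrils and growth factors, and most of them carry sulfated sugar chains. They set the thickness and spacing of collagen fibrils in tendon, cartilage and bone, and decorin and biglycan also hold members of the transforming growth factor family in the matrix. The family was followed here through 9 genes: decorin (Dcn), biglycan (Bgn) and asporin (Aspn) of class I, lumican (Lum), fibromodulin (Fmod), Prelp and osteomodulin (Omd) of class II, osteoglycin (Ogn) of class III, and the related leucine-rich repeat protein Ecm2. They are 9 of the 46078 gene entries of the count table, or of 45771 nuclear genes once repeated symbols were summed.

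The study asked how the stromal cells of the bone marrow niche differ between endosteum and central marrow and between young and old mice. 661 single cells were sorted from wild-type C57BL/6 mice labelled Young or Old and sequenced in plates, without molecular identifiers. All sorts were negative for Ter119 and CD45. The labels name no mouse, so each age of a population is 1 sample, and no test between groups was possible.

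From the endosteum came MSC-S (Sca-1+ CD51+; 59 young and 59 old cells), mOPr (Sca-1− CD51+ PDGFRα+ LepR−; 26 young and 26 old), OPr (Sca-1− CD51+ PDGFRα− LepR−; 44 young and 29 old) and arteriolar endothelial cells, AEC (CD31+ Sca-1hi CD105lo; 84 young and 82 old). From the central marrow came MSC-L (Sca-1− CD51+ PDGFRα+ LepR+; 53 young and 58 old) and sinusoidal endothelial cells, SEC (CD31+ Sca-1lo CD105hi; 70 young and 71 old). A cell held from 57517 to 1488549 nuclear counts, with a median of 416359, and a group held from 12485462 (old mOPr) to 39179615 (old MSC-S). Library numbers in the labels fall into 3 ranges. Mesenchymal cells come from ranges 1 and 2, SEC from range 3 alone and AEC from all 3, and what a range stands for is not given in the sources used here. Cluster numbers come from the labels and their names follow the study: M1 and M2 are MSC-L-like, M3 to M5 OPr-like, M6 to M16 MSC-S-like, E1 doublets, E2 pericytes and E7 SEC-like.

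Levels are CPM, the counts of a gene per 1000000 nuclear counts of its group, with exact Poisson intervals at the 95% level. Intervals cover the sampling of reads only. Reads without identifiers are not separate molecules, so error in the number of molecules is not covered. A cell was said to carry a gene at 10 CPM or more, and shares of cells have Clopper-Pearson intervals. A difference is a log2 ratio of summed CPM with 1 CPM added to each side, and was called at 2-fold or more. The interval of a ratio was made from the counts without the added 1 CPM, so at low levels a ratio can lie outside it. Only genes with at least 100 counts over both groups and reads in at least 5 cells were counted, and all 9 members met this in every mesenchymal comparison.

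Markers of the young gates were compared first. LepR+ stroma genes (6 of 6 found, led by Cxcl12) summed to 57359.5 CPM in young MSC-L and 548 CPM in young MSC-S. Cartilage genes summed to 36313 CPM in young OPr, where Col2a1 led, and 109 CPM in young MSC-L. Osteolineage genes (7 of 7 found) summed to 11374 CPM in young MSC-L, where Ibsp led at 8012 CPM, and 3511 CPM in young OPr. The list was split, since 7 genes reached 10 CPM in young OPr and 5 in young MSC-L, where Bglap2 was under 1 CPM. The PDGFRα− gate did not leave OPr free of Pdgfra transcript, which stood at 93.3 CPM in young OPr.

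The members were also taken as a sum. They held 4.46% of all nuclear counts in young mOPr, 3.43% in young MSC-S and 1.95% in young OPr, against 0.624% in young MSC-L. Old cells held 2.03% in mOPr, 2.92% in MSC-S, 0.562% in OPr and 0.607% in MSC-L. The sum was thus close between ages in MSC-L and MSC-S and lower in both old OPr gates, at log2 ratios of -1.13 in mOPr and -1.79 in OPr. Without M1 and M2 cells it was -0.42 in mOPr and -2.05 in OPr. With the 8 old OPr cells rich in hematopoietic markers left out too, it was -1.17 in OPr. In the OPr-like clusters of all gates it was -0.32, so the lower sums did not hold in every choice of cells. In the richest cell, a young MSC-S cell, 13.2% of the nuclear counts came from these 9 genes. A median of 5 members was carried per mesenchymal cell, and only 6 cells carried none, all of them old OPr. Bgn was carried by 2 of the 8 old OPr cells rich in hematopoietic markers and by 20 of the other 21. The cells with no member thus lay mainly among those 8. Endothelial sums were lower, at 0.276% in young SEC and 0.0830% in young AEC.

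The leading member differed by population. On the per-length scale (CPM per kb of exon), Bgn made up 49.2% of the summed member level in young MSC-L. Dcn made up 52% of the per-length sum in young MSC-S, and Fmod 45.1% of it in young OPr. In young mOPr, Dcn (34.6%) and Fmod (32%) took near-equal parts of the per-length sum. Old mOPr had 62.9% Dcn and 0.727% Fmod on that scale. Old OPr had 31.6% Bgn and 24.8% Fmod per length. In both OPr gates, Fmod took a smaller part of the per-length sum in old cells.

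**Figure D1:**
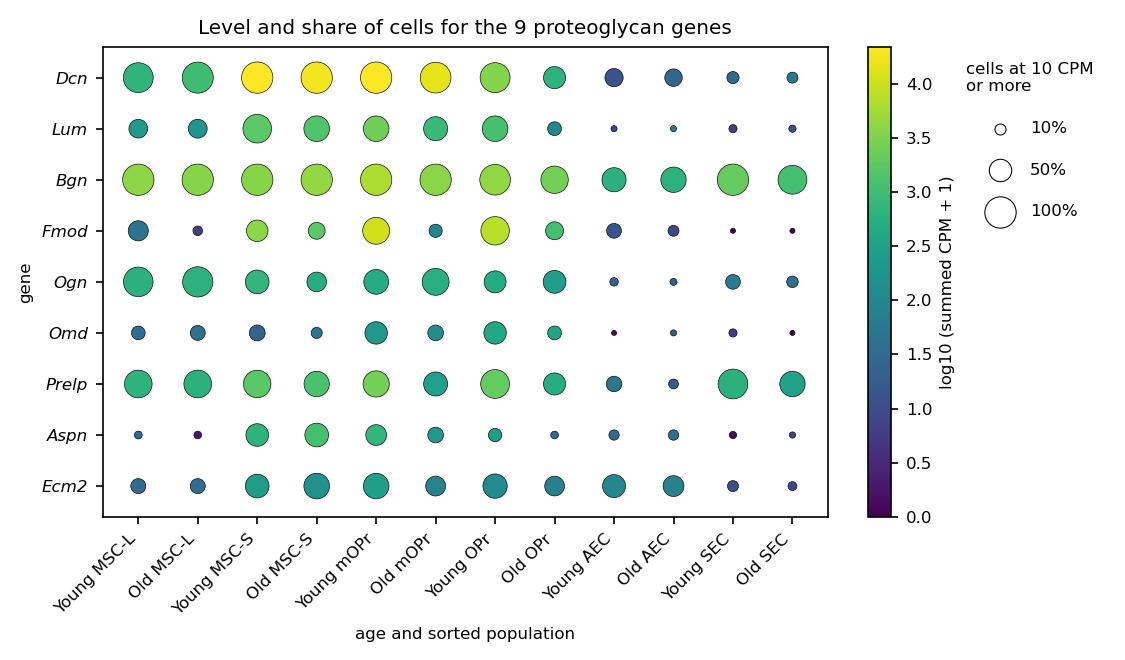
Level of each member (color, log10 of CPM + 1, summed over the cells) and share of cells carrying it (dot size) in each of the 12 groups. Bgn stands high in every mesenchymal group, while Dcn and Aspn are lower in MSC-L than in MSC-S. Fmod is lower in old than in young mOPr and OPr.

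Decorin, which binds type I collagen and transforming growth factor beta, was highest in young MSC-S, at 21974 CPM (21924 to 22023). The lowest, median and highest of the 59 young MSC-S cells were 103, 15019 and 84654 CPM, and every cell carried it. In the 53 young MSC-L cells they were 2.10, 221 and 6301 CPM, with 48 of 53 cells (90.6%, 79.3 to 96.9%) carrying it. Dcn was therefore present in most cells of both populations and differed in amount, with a log2 ratio of 5.02 (5.00 to 5.05) for young MSC-S over young MSC-L. Young mOPr (20605 CPM), old MSC-S (18553 CPM) and old mOPr (14337 CPM) came next. Then followed young OPr (3476 CPM), old MSC-L (996 CPM), young MSC-L (675 CPM) and old OPr (642 CPM). The middle parts of the cell values (first to last quartile) overlapped between all neighbours in this order, as they did for the other members.

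Biglycan, which carries chondroitin or dermatan sulfate chains and is abundant in bone matrix, had the most even levels over the groups. Its level ran from 2565 CPM in old OPr to 6418 CPM in young mOPr. Every cell of MSC-L, MSC-S and mOPr of both ages carried Bgn, as did 42 of 44 young and 22 of 29 old OPr cells. Without the 8 old OPr cells rich in hematopoietic markers, old OPr stood at 3420 CPM, with 20 of 21 cells carrying Bgn. In young mOPr the lowest, median and highest cells were 542, 4990.2 and 20084.9 CPM. No age comparison of the sorted mesenchymal populations passed 2-fold for Bgn over all cells. Its log2 ratios were -0.14 in MSC-L, 0.32 in MSC-S, -0.77 in mOPr and -0.68 in OPr. In mOPr it was past 2-fold in library-number range 2, at -1.17, and within it in range 1, at -0.24.

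Asporin, which has an aspartate-rich end and competes with decorin for collagen, was uneven. It stood at 1134 CPM (1124 to 1145) in old MSC-S and 722 CPM (708 to 736) in young mOPr, and at 0.821 CPM (0.469 to 1.33) in old MSC-L. 1 cell held 52.3% of the young mOPr counts. Old MSC-S cells ran from 0 through a median of 488 to 3864 CPM, and 33 of 59 cells (55.9%, 42.4 to 68.8%) carried Aspn. In old MSC-L the median cell was at 0 and 2 of 58 cells carried it. In these sorted gates Aspn was thus a gene of part of the cells.

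Ecm2, a matrix protein whose repeats resemble those of decorin, was low throughout. Its level ran from 29 CPM in young MSC-L to 274 CPM in young mOPr, where 17 of 26 cells carried it. Per kb of exon, Ecm2 reached 48.2 in young mOPr, against 3529.5 for Dcn on the same scale.

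Lumican, a keratan sulfate proteoglycan that orders collagen in cornea and skin, was present in all mesenchymal groups. It was highest in young mOPr, at 2453 CPM (2428 to 2479), with the 26 cells running from 0 through 612 to 21761 CPM. Young MSC-S had the largest share of Lum cells, 49 of 59 cells (83.1%, 71 to 91.6%). In MSC-L, 18 of 53 young and 20 of 58 old cells carried it.

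Fibromodulin, which binds type I collagen and is typical of tendon and cartilage, was highest in young mOPr (10816 CPM, 10762 to 10869) and next in young OPr (7527 CPM, 7496 to 7559). Young OPr cells ran from 0 through a median of 3271 to 45029.5 CPM, and 36 of 44 cells (81.8%, 67.3 to 91.8%) carried it. Young MSC-S had a summed level of 3831 CPM but a median cell of 8.55 CPM. That sum therefore rested on a part of the cells, 27 of 59 in all, and the richest cell held 36.5% of the counts. MSC-L had 43.8 CPM in young and 5.23 CPM in old cells. Old mOPr stood next to young MSC-L, at 93.8 CPM, and a smaller share of its cells carried Fmod, 4 of 26 against 21 of 53.

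Prelp, which binds collagen and basement membrane heparan sulfate, followed a similar order. Young mOPr had 2602 CPM (2576 to 2629), young OPr 2006 CPM (1990.2 to 2023) and young MSC-S 1625 CPM (1611 to 1638). The young OPr cells ran from 0 through 1298 to 6426 CPM. Unlike Fmod, Prelp was well present in MSC-L, where 41 of 53 young and 45 of 58 old cells carried it at summed levels of 647 and 596 CPM.

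Osteomodulin, a member found mainly in mineralized tissue, had its highest levels in OPr. They were 383 CPM (375 to 389.7) in young and 368 CPM (360.3 to 377) in old OPr, against 22.9 CPM in young MSC-S. The carrying cells were 22 of 44 in young OPr and 5 of 29 in old OPr. Near-equal sums thus came from unequal numbers of cells, and the richest old cell held 73.6% of the old counts.

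Osteoglycin was the member with the flattest order next to Bgn. It ran from 255 CPM in old OPr to 692 CPM in young MSC-S. MSC-L had the largest shares of Ogn cells, 47 of 53 cells (88.7%, 77 to 95.7%) in young and 54 of 58 cells (93.1%, 83.3 to 98.1%) in old. In young MSC-S, 33 of 59 cells carried Ogn and the median cell was at 31.2 CPM, against 512 CPM in young MSC-L. Ogn was therefore even among MSC-L cells and concentrated in fewer cells of MSC-S.

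**Figure D2:**
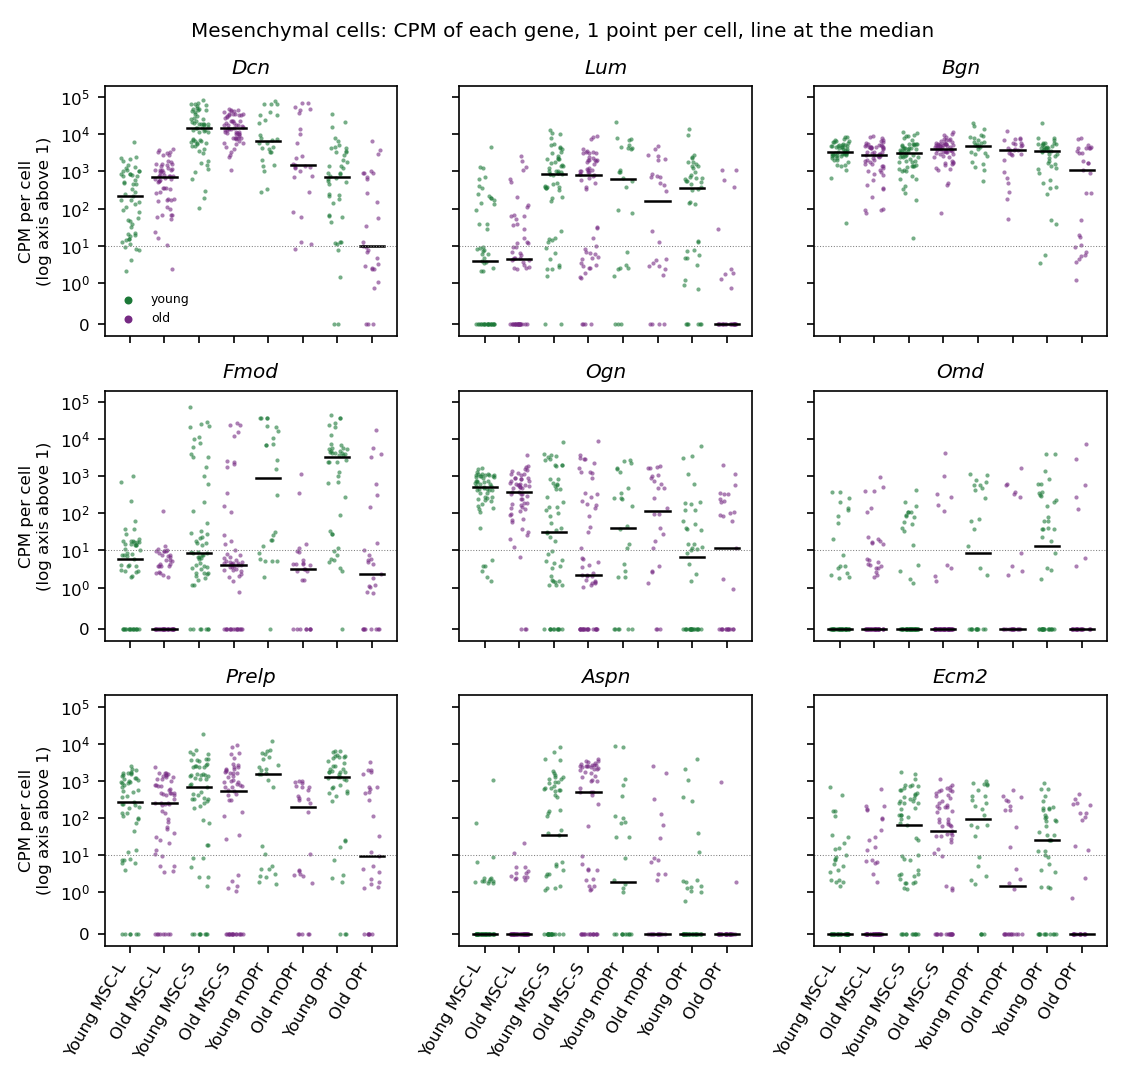
CPM in each single cell (log axis above 1 CPM; young green, old purple) for each member across the mesenchymal groups. Bgn is present in nearly all cells, whereas Fmod cells divide into a high and a near-zero group.

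Comparison of both MSC gates asked how endosteal and marrow stroma differ. In young cells, 6 of 9 members were higher in MSC-S by 2-fold or more, where 16.8% of all genes counted were. None was lower, where 28.8% of all genes were. The 6 were Fmod (6.42), Dcn (5.02), Aspn (4.25), Ecm2 (3.08), Lum (2.83) and Prelp (1.33) as log2 ratios. Bgn (-0.16), Ogn (0.23) and Omd (-0.57) stood within that limit, but Omd was past it in library-number range 1, at -1.90, and at 0.07 in range 2. Aspn in young MSC-L rested on 1 cell with 92.7% of its counts, and its ratio without the richest cell of each group was 7.23.

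In old cells the same 6 members were higher in MSC-S, where 16.2% of all genes were, and none was lower, where 32.8% were. Fmod had a log2 ratio of 8.09, Aspn 9.28 and Dcn 4.22. Prelp stood near the limit, at 1.08. It was within it in library-number range 2 alone, at 0.82, and without the richest cell of each group, at 0.92. Ogn, at -0.30, was past the limit in opposite directions in the ranges, at 1.31 in range 1 and -1.25 in range 2. The median log2 ratio over all genes counted was -0.32 in young and -0.37 in old cells. TMM scaling shifted the comparison by 0.35 in young and 0.50 in old cells. Under TMM, Bgn in young cells changed sign, to 0.19, and so did Ogn in old cells, to 0.20.

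Young OPr was also compared with young MSC-S. Omd was higher in OPr, at 4.01 (3.96 to 4.17), as 1 of 9 members where 19.3% of all genes were. Dcn (-2.66), Aspn (-1.39) and Ecm2 (-1.07) were lower, 3 members where 17% of all genes were. The signs were the same in both ranges, but Aspn was within the limit in range 1 (-0.70) and Ecm2 in range 2 (-0.81). Fmod lay just inside the limit, at 0.97, and past it in library-number range 2, at 1.64. Range 1 gave 0.24. The order of young OPr and young MSC-S for Fmod was the same in both ranges and its size was not. Ogn was within the limit, at -0.54, with -0.24 in range 1. It was past the limit as lower in range 2 (-1.07), without the richest cell of each group (-1.25) and by means over cells (-1.01).

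Old and young MSC-L were compared to ask what differs with age in the marrow stroma. None of 9 members was higher in old MSC-L, where 13.9% of all genes were, and 2 were lower, where 11.5% of all genes were. Fmod was the first, with 21 of 53 young and 4 of 58 old cells carrying it and a log2 ratio of -2.84. The difference was -5.19 in range 1 and -1.25 in range 2, and -0.16 among all cells of clusters M1 and M2, which take in cells of other gates. The MSC-L cells of M1 and M2 alone had 45 CPM in young and 5.36 CPM in old. Aspn was the second, at -4.23, but its young level came from 1 cell and it lay at 0.62 in range 1. Without the richest cell of each group Aspn was at -1.06. Bgn (-0.14), Ogn (0.08) and Prelp (-0.12) were close between ages. Ecm2 (0.11) and Omd (0.32) were within the limit but past it as higher in range 1, at 1.62 and 1.05. In range 2 they had the opposite sign, at -0.65 and -0.98. Dcn, the second member of MSC-L by counts, had 0.56, with 0.94 in range 1 and 0.36 in range 2. Its median MSC-L cell was at 221 CPM in young and 697 CPM in old cells. Hematopoietic markers summed to 37.9 CPM in young and 264 CPM in old MSC-L, and their part in these values was not tested.

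In MSC-S, 1 member was higher in old cells, where 8.65% of all genes were, and 1 was lower, where 11.1% were. Fmod was lower at -1.17, with 27 of 59 young and 16 of 59 old cells carrying it. Its ratio was -1.06 in range 1, -0.95 in range 2, -0.96 without the richest cell of each group and -2.09 in the MSC-S-like clusters of all gates. Omd was higher at 1.13, from 22.9 to 51.1 CPM, but fewer old cells carried it, 6 of 59 against 14 of 59 young cells, and without the richest cell of each group it was within the limit, at 0.70. Omd had opposite signs in the ranges, with 3.78 in range 1 and -1.56 in range 2. Aspn approached the limit from below, at 0.81, with 1.25 and 0.62 in ranges 1 and 2 and 1.05 without the richest cell of each group. Its median MSC-S cell was at 35.5 CPM in young and 488 CPM in old cells, while near-equal shares carried it. Ogn and Ecm2 had opposite signs in the ranges, Ogn 0.41 and -1.03, and Ecm2 0.38 and -1.38. Cartilage markers summed to 5288 CPM in young and 2770.2 CPM in old MSC-S, tendon markers to 1447 and 752 CPM, and osteolineage markers to 1033 and 191 CPM. LepR+ stroma markers summed to 548 CPM in young and 1209 CPM in old MSC-S, led by Cxcl12 at 297 and 847 CPM. Lepr (1.07) and Foxc1 (0.75) were higher too, but Adipoq (-4.51), Kitl (-1.02) and Ebf3 (-0.82) were lower. Pericyte and smooth muscle markers summed to 149 and 369 CPM, led by Rgs5 at 124 and 360 CPM. Of these, Acta2 (-3.05) and Tagln (-0.93) were lower, Notch3 (0.93) was higher and Myh11 (0.07) was close. The part of these markers in the Fmod and Omd ratios was not tested.

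In mOPr, 5 of 9 members were lower in old cells, where 19.8% of all genes were, and none was higher, where 24.7% were. Fmod differed most, from 10816 to 93.8 CPM, a log2 ratio of -6.83 (-6.93 to -6.77). The 26 young cells ran from 0 through a median of 918 to 37172 CPM, and the 26 old cells from 0 through 3.16 to 1116 CPM. Both ages held cells near 0, and the high values were in the young cells: 19 of 26 young and 4 of 26 old cells carried it. Prelp was next, at -3.05 (-3.10 to -3.01), with medians of 1502 CPM in young and 202 CPM in old cells. Aspn had -1.81, Ecm2 -1.62 and Lum -1.52. These signs were the same in both ranges, with Fmod at -10.20 and -6.55, Prelp at -2.41 and -3.54, and Lum at -1.22 and -1.73. Dcn stayed within the limit, at -0.52, and Ogn at 0.14 had opposite signs in ranges 1 (-0.90) and 2 (2.23).

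The old and young mOPr gates also held different clusters. Cells of M1 and M2 were 2 of 26 young and 14 of 26 old cells, and LepR+ stroma markers (6 of 6 found, led by Cxcl12) summed to 998 CPM in young and 21133 CPM in old mOPr. Cells of the MSC-S-like clusters M6 to M16 were 16 young and 0 old. Cartilage markers (5 of 6 found, led by Comp) summed to 9556 and 573 CPM, and Acan was under 1 CPM in the old cells. Tendon markers (4 of 4 found, led by Thbs4) summed to 1180.3 and 127 CPM, and pericyte and smooth muscle markers (5 of 5 found, led by Acta2) to 157 and 2225 CPM. Without M1 and M2 cells the ratio was -6.13 for Fmod, -2.88 for Prelp and -1.28 for Ecm2. Lum (-0.83) and Aspn (-0.81) were then within the limit, Bgn (-1.39) was past it, and Dcn had the opposite sign (0.44). The young cells left in that comparison were mostly MSC-S-like, with Fmod at 13294 CPM, and the old ones were all of M5. In M5 alone, Fmod stood at 260.4 CPM in 7 young and 162 CPM in 12 old mOPr cells, with 96% and 98.4% of the counts in 1 cell each. Prelp in these cells was at 1221 and 372 CPM, but its median cell was at 10.9 CPM in young and 283 CPM in old. Age and cluster makeup therefore cannot be told apart in the Fmod and Prelp ratios of mOPr.

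In OPr, 5 of 9 members were lower in old cells, where 19.6% of all genes were, and none was higher, where 25.6% were. Lum had the largest ratio over all cells, -3.42 (-3.49 to -3.37), with 29 of 44 young and 5 of 29 old cells carrying it. Fmod was lower at -2.79, with medians of 3271 CPM in young and 2.34 CPM in old cells and highest cells of 45029.5 and 17743 CPM. Most old cells had next to no Fmod, and a few had high levels. Dcn (-2.43) and Prelp (-2.04) were lower too, with medians of 696 and 9.55 CPM for Dcn and 1298 and 9.52 CPM for Prelp. Aspn was lower at -2.86, but 1 cell held 62.4% of the young counts and 1 cell 99.9% of the old. Without the richest cell of each group Aspn was at -6.54, and Lum and Fmod at -3.82 each. All 5 were lower in each range, Lum at -3.04 and -3.67, Dcn at -2.95 and -2.15 and Prelp at -3.60 and -1.48. Among these members Fmod, at -11.28 and -2.03, and Aspn, at -8.46 and -1.27, differed most between the ranges and were the lowest in range 1. Omd, at -0.05 in the sum, was listed with 0 counts in the 10 old cells of range 1, against 546 CPM in the young, and at 1.27 in range 2.

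**Figure D3:**
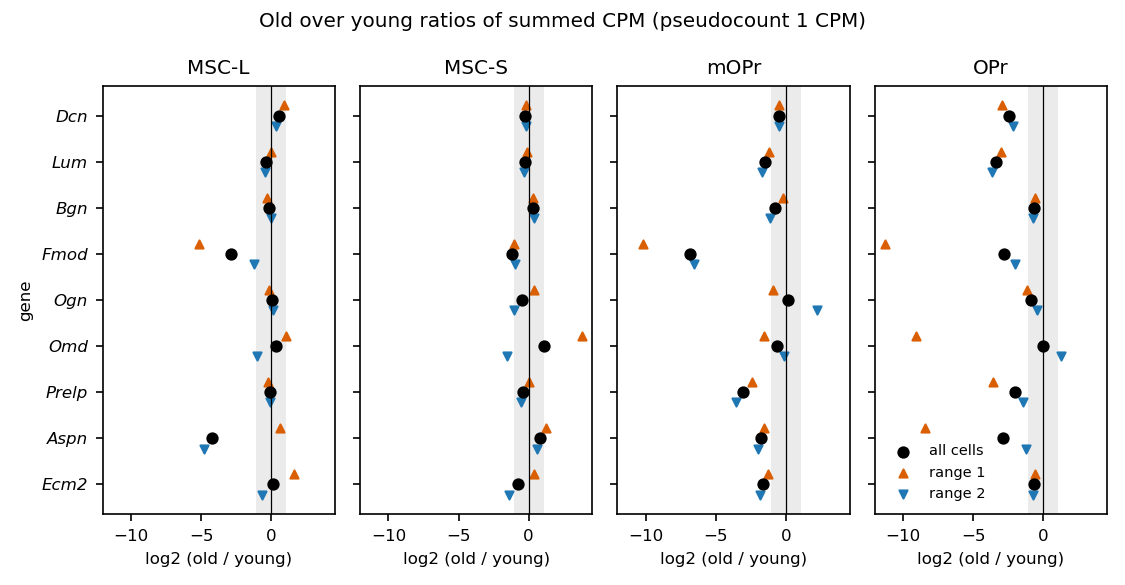
Log2 ratio of old over young for each member in the 4 mesenchymal populations, over all cells and within each library-number range, with 1 CPM added to each side. The grey band marks ratios within 2-fold, and Fmod lies below it in all 4 populations over all cells.

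Markers of other cell types differed between old and young OPr. Hematopoietic markers (15 of 15 at 10 CPM or more, led by S100a9) summed to 12047 CPM in old and 29.6 CPM in young OPr. Those of old OPr came from 8 of 29 cells that carried 12 to 15 of these markers, although the gate was negative for CD45. In these cells Bgn stood at 6.53 CPM and Fmod and Dcn at 4.11 CPM each, so they added almost no member counts. Without them the ratios were -3.00 for Lum, -2.45 for Aspn, -2.37 for Fmod, -2.02 for Dcn and -1.62 for Prelp, all still past the limit.

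Cells of M1 and M2 were 3 of 44 young and 10 of 29 old OPr cells. LepR+ stroma markers summed to 5589 CPM in young and 22695 CPM in old OPr, and cartilage markers (led by Col2a1 in young and Comp in old cells) to 36313 and 2336 CPM. Tendon markers summed to 704 and 28.7 CPM, and pericyte and smooth muscle markers to 100.3 and 2244 CPM. LepR+ stroma and pericyte markers were thus higher and cartilage and tendon markers lower in old OPr. Without M1 and M2 cells Lum was at -4.63, Dcn at -2.44, Fmod at -2.15, Aspn at -2.18 and Prelp at -1.89. Bgn (-2.19) and Ogn (-1.52) were then lower as well. The 8 hematopoietic-marker cells were among the 19 old cells left. With them left out too, Lum was at -3.77, Dcn at -1.57, Bgn at -1.32, Aspn at -1.31, Fmod at -1.27 and Prelp at -1.02. Ogn (-0.65) was then within the limit, and Omd was past it as higher in old cells. In the OPr-like clusters M3 to M5 of all gates together, Fmod (-2.23), Prelp (-1.73), Lum (-1.64) and Bgn (-1.24) were lower in old cells. Dcn, with the opposite sign (0.90), and Aspn (-0.72) were within the limit. Without the hematopoietic-marker cells of M5, Dcn was higher past the limit there (1.36), Fmod (-1.78), Prelp (-1.28) and Lum (-1.19) lower, and Bgn within it (-0.79). The gates went different ways for Dcn in these clusters. With all cells kept, it was at 4029 CPM in young and 700 CPM in old cells of the OPr gate. In the mOPr gate it was at 13547 and 29250 CPM, and in the MSC-S gate at 9173 and 22583 CPM. M3 and M4, which are rich in Fmod and Prelp, held 15 and 9 young against 1 and 4 old cells. The part of cell makeup in the lower members was not tested beyond these values. Against the median over all genes, 0.14 in OPr and 0.11 in mOPr, the TMM shift was -0.19 and -0.16 in turn. Under TMM the ratio of Ogn was -0.02 in mOPr and -1.08 in OPr, past the limit, so that 6 members were lower in old OPr.

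Across the mesenchymal clusters of the deposited labels, members came in different mixes. These clusters were built from all genes, with Fmod and Dcn among the genes that guided them, so their levels are descriptions. M15 (17 cells, all young) had the highest Fmod of clusters with over 5 cells, at 17817 CPM, with Dcn at 24129 CPM. M4 (13 cells) had Fmod at 10371 CPM and the highest Omd, at 1816 CPM, but Aspn at 0.432 CPM. In M3 (16 cells, all sorted as OPr), Fmod (4203 CPM) and Prelp (2548 CPM) stood beside little Dcn (360.1 CPM). M3 and M4 thus shared Fmod and Prelp and differed in Dcn and Omd. M5 (65 cells), the third OPr-like cluster, had Fmod in 22 and Prelp in 36 of its cells, with medians of 5.52 and 17 CPM.

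Among MSC-S-like clusters, M12 (27 cells) held nearly the whole family, with Dcn at 33401, Fmod at 7959, Prelp at 2566, Aspn at 1324 and Ogn at 1235 CPM. M16 (36 cells, 35 of them sorted as MSC-S) held Dcn (7131 CPM) and Bgn (4087 CPM) but hardly any Fmod (3.98 CPM), Ogn (3.09 CPM) or Omd (0.0804 CPM). M7 (15 cells) had Aspn at 1509 CPM and Fmod at 8.96 CPM, and M9 (10 cells, all old) had Aspn at 2355 CPM. M8 (7 cells) had the highest Ogn of clusters with over 5 cells, at 2273 CPM. The sorted MSC-S gate was therefore a mix of member profiles, with Dcn and Bgn present in each.

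M1 and M2, which hold 86 and 50 cells, differed in Prelp, at 729 and 127 CPM. Lum was at 136 and 410.1 CPM, but 1 cell held 40.4% of the Lum counts of M2, and the median cells were at 2.49 and 4.20 CPM. Within M1, Dcn was at 516 CPM in young and 895 CPM in old cells, and Prelp at 767 and 693 CPM. Within M2, Dcn was at 1441 CPM in young and 848 CPM in old cells. There 1 cell held 58.4% of the young Dcn counts, and the median cells were at 160 and 730 CPM. In M5, where 31 young and 34 old cells of several gates met, Fmod was at 3973 CPM in young and 69.4 CPM in old cells. Dcn was at 11122 and 12406 CPM there, but its median cell was at 1805 CPM in young and 207 CPM in old cells. It was carried by 28 of 31 young and 20 of 34 old cells. M12 cells of both ages held Fmod, at 9562 CPM in young and 5311 CPM in old cells. Single cells held 80.5% of the young and 79.5% of the old Fmod counts of M5, and 50.5% and 54.9% of those of M12. Median cells for Fmod were at 13.6 CPM in young and 1.77 CPM in old M5, and at 610.0 and 1036 CPM in M12. The hematopoietic-marker cells of old OPr all lay in M5 and carried little of any member.

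Endothelial cells held a short list of members. Bgn was carried by 70 of 70 young and 60 of 71 old SEC, at 2046 CPM (2027 to 2065) and 1118 CPM (1104 to 1133). Prelp was carried by 63 of 70 and 46 of 71, at 603 CPM (593 to 613) and 310.4 CPM (303 to 318). Their log2 ratios of old over young SEC were -0.87 and -0.96, both within 2-fold. Prelp was past it under TMM (-1.05), by median of ratios (-1.02) and without the richest cell of each group (-1.11). Within E7, Prelp was inside the limit, at -0.66. The gates differed in makeup, with arteriolar markers (4 of 4 found) at 106 CPM in young and 486 CPM in old SEC. LepR+ stroma markers were at 6749 and 4248 CPM, pericyte and smooth muscle markers at 90.1 and 476 CPM, and hematopoietic markers at 187 and 676 CPM. Bgn, Prelp, Ecm2, Aspn, Ogn and Fmod were among the genes that guided the endothelial clusters, so their levels in E1 to E7 are descriptions. Within E7, Bgn was at 1743 CPM in young and 1227 CPM in old cells, carried by 61 of 61 and 43 of 44. Clusters E1 (doublets) and E2 (pericytes) held 98.3% of the Dcn counts and all Lum counts of young SEC. Dcn and Lum in the SEC gate thus lay almost wholly in those 9 cells. Bgn was at 1670.3 CPM and Prelp at 499 CPM in the other 61 young cells, against 994 and 244 CPM in the other 66 old cells. E1 and E2 held 30.6% of the young and 18.4% of the old Bgn counts of SEC.

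Cells were also taken from the SEC gate by markers alone, whatever their cluster. 17 young and 16 old SEC carried none of 8 mesenchymal markers. Among these, Bgn was carried by 17 young and 14 old cells, at 1401 and 864 CPM. Prelp was carried by 13 young and 9 old cells, at 419.6 and 208 CPM. Dcn, Lum, Fmod, Ogn, Omd and Aspn had 0 counts there, with an exact Poisson upper limit of 0.722 CPM in the young cells. Bgn and Prelp were therefore present in SEC-gate cells free of these markers.

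AEC differed from SEC in Ecm2. It stood at 103 CPM (99.8 to 107) in young and 81.7 CPM (78.7 to 84.8) in old AEC, with 44 of 84 and 35 of 82 cells carrying it, against 9.26 CPM in young SEC. In range 3, which all SEC come from, it was at 100.2 CPM in young and 75.5 CPM in old AEC. Bgn was lower in AEC than in SEC, at 588 CPM in young and 622 CPM in old AEC, where 49 of 84 and 53 of 82 cells carried it, and at 421 and 419.8 CPM in range 3. Prelp was lower in AEC too, at 54.5 and 14.7 CPM, but at 136 and 47 CPM in range 3. Lum and Omd of old AEC came almost wholly from 1 cell, which held 98.7% and 100% of their counts.

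Members also differed in the company they kept from cell to cell. Pearson correlations of log2(CPM + 1) over the mesenchymal cells (111 MSC-L, 118 MSC-S, 52 mOPr and 73 OPr), which share gates and library ranges and differ in depth, describe this. Dcn went most with Nbl1 (0.70), Igfbp6 (0.67) and Gsn (0.63). Lum went with Dcn (0.59), Mmp2 (0.57) and Gsn (0.52), and Aspn with Igfbp6 (0.69), Fbln2 (0.67) and Itgbl1 (0.63). Fmod kept to cartilage matrix genes, Acan (0.71), Hapln1 (0.69) and Cilp2 (0.67). Omd went with Col11a1 (0.44), Chad (0.44) and Pla2g5 (0.42), and Ogn with Svep1 (0.60), Gas6 (0.58) and Marcks (0.58). Bgn went with Rcn3 (0.61), Igfbp7 (0.58) and Lrp1 (0.58), but its Spearman correlation with Lrp1 was 0.24. Prelp and Ecm2 were in each other's nearest genes (0.49), Prelp beside Aff3 (0.51) and Vit (0.48) and Ecm2 beside Gsn (0.47) and Comp (0.46). Only Lum, Prelp and Ecm2 had another member among their 3 nearest genes.

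Most members lie in clusters on the genome. By the GENCODE annotation of GRCm38, Dcn (chr10:97479609-97518143) and Lum (chr10:97565128-97572703) are neighbours on the plus strand, 47 kb apart, followed by Kera and Epyc. Ecm2, Aspn, Omd and Ogn follow each other on the plus strand of chromosome 13 between 49504810 and 49624501, within Cenpp on the minus strand. Prelp lies on the minus strand of chromosome 1 and Fmod, 116 kb on, on the plus strand (chr1:134037254-134048277). Bgn stands alone on chromosome X. Counts were made without strand. Cenpp shares 7 exon bases with Aspn, and its highest mesenchymal level was 19.4 CPM, in young OPr. An antisense gene, Gm15851, shares 350 with Prelp and had at most 11 counts in a mesenchymal group.

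Neighbours on the genome were not always neighbours in pattern. Over the same cells the correlation was 0.59 for Dcn and Lum, 0.44 for Prelp and Fmod and 0.39 for Ecm2 and Aspn. It was 0.05 for Aspn and Omd and 0.12 for Omd and Ogn. Dcn and Aspn, which lie on different chromosomes, had 0.49. On chromosome 13, Ecm2 and Aspn were thus the closest pair, and Omd and Ogn stood apart from both and from each other.

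**Figure D4:**
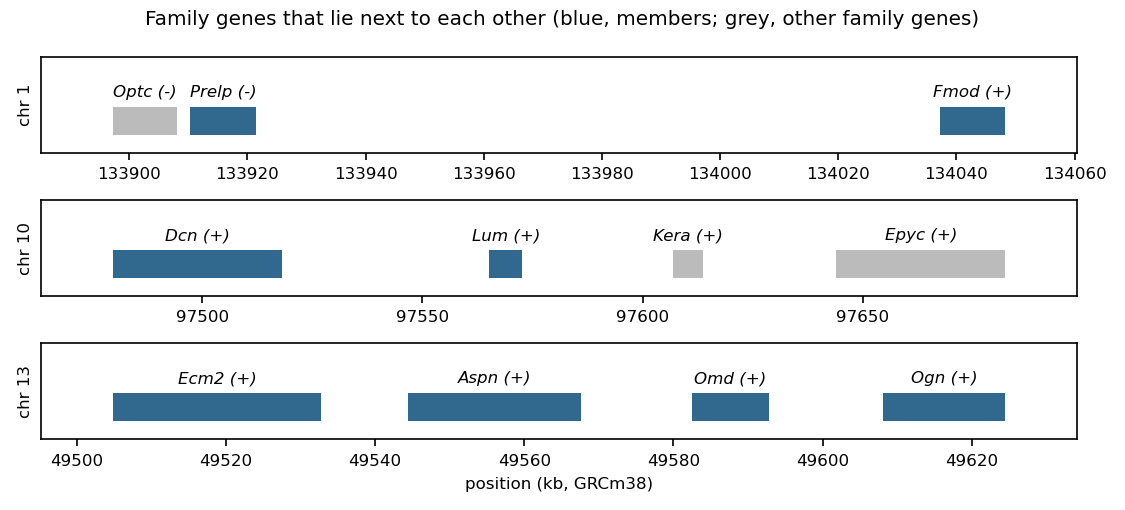
Positions of the members and of nearby family genes on GRCm38 (GENCODE), with position in kb on the x axis and the strand of each gene. Ecm2, Aspn, Omd and Ogn lie in 1 row on chromosome 13, and Dcn and Lum side by side on chromosome 10.

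Promoter sequences from RefSeq (GRCm38.p6, 300 bases around each start) were held for 7 of 9 members. Dcn and Lum were not matched. A search on both strands for TATAAA (the TATA box), the pentamer CCAAT, the core TGTGGT that Runx factors bind and the GC box GGGCGG found TATAAA in Aspn and Ogn, CCAAT in Aspn, Fmod and Prelp, TGTGGT in Ogn, and GGGCGG in Bgn and Ecm2. No string contains another. Of 32851 promoters of the same length, 13.6% hold TATAAA, 37.4% CCAAT, 16.8% TGTGGT and 35.7% GGGCGG. Shown are Fmod and Prelp, the neighbouring pair that was lower in both old OPr gates, and Bgn, the most even member. Bgn has 63.7% G and C, Prelp 55.3% and Fmod 51%. Capitals mark matches of the strings on either strand, and a match is a description of letters only. The windows are chr1:134037004-134037303 (plus strand) for Fmod, chr1:133921352-133921651 (minus strand) for Prelp and chrX:73483351-73483650 (plus strand) for Bgn.
Fmod: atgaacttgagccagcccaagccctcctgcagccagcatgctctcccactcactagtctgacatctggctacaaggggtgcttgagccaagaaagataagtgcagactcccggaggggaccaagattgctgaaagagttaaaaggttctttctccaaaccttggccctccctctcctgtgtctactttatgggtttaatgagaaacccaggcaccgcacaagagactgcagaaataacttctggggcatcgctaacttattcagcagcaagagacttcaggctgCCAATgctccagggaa
Prelp: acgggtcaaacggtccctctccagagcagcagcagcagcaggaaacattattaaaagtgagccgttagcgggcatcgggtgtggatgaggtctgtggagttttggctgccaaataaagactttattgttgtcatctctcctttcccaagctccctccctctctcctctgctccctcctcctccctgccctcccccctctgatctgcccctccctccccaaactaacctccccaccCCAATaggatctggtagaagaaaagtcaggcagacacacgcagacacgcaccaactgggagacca
Bgn: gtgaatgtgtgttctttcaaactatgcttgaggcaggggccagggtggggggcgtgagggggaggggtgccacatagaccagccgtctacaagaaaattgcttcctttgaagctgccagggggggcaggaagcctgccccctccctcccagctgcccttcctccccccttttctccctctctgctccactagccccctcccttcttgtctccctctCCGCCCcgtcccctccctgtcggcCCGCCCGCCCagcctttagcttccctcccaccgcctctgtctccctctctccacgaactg

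Genes that work beside the members were examined as lists, with ratios over whole gates. Cells of M1 and M2 were 10 of 29 old and 3 of 44 young OPr cells, and 14 of 26 old and 2 of 26 young mOPr cells. Old OPr also held the 8 hematopoietic-marker cells. The part of this makeup in the list ratios, lower or higher, was not tested. Over all genes, 19.6% were lower and 25.6% higher in old OPr, and 19.8% lower and 24.7% higher in old mOPr. Of 7 collagens of the fibrils that the members bind, 7 were lower in old OPr (median log2 ratio -2.94) and 4 in old mOPr (-1.13), with none higher in either. The members had medians of -2.04 and -1.52, and all genes 0.14 and 0.11. In MSC-S, 0 of 7 counted collagens were lower in old cells, where 11.1% of all genes were, and in MSC-L 1 of 6, where 11.5% were. Col1a1 was at 1704 CPM in young and 138 CPM in old OPr.

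Of the 9 other leucine-rich repeat proteoglycans, 6 could be counted in OPr, and 3 were lower and 2 higher in old cells. Chad, a cartilage relative, was at 10345 CPM in young and 4302 CPM in old OPr, and Epyc at 319.5 and 36.1 CPM. Podnl1 was higher in old OPr, at 127 against 52.7 CPM, and was mostly a gene of MSC-L (247 CPM in young cells). Kera, typical of cornea, was highest in MSC-S, at 226 CPM in young cells, with 27.1 CPM in young mOPr.

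The enzymes that build the sugar chains went both ways, beside 19.6% lower and 25.6% higher over all genes in old OPr. Of 14 counted enzymes of chondroitin and dermatan sulfate, 6 were lower and 2 higher in old OPr, Chst11 among the lower ones, from 527 to 68.9 CPM. Of 8 genes of sulfate and UDP-sugar supply, 5 were lower and 1 higher, with Papss2, which makes the sulfate donor, at 519 CPM in young and 29.9 CPM in old OPr. Papss2 was higher in old mOPr, at 124 against 45.1 CPM. Of 6 enzymes that start the chains, 2 were lower in old OPr and 4 in old mOPr. Of 5 counted keratan sulfate enzymes, 1 was lower and 1 higher in old OPr, close to the shares over all genes. Ugdh, which makes the UDP-glucuronate used in chains, was highest in MSC-S, at 1175 CPM in young and 1480.1 CPM in old cells, against 48.9 CPM in young MSC-L. Processing proteases were lower in 2 of 4 counted genes in old OPr, large and other proteoglycans in 3 of 5 with 1 higher (Srgn), and receptors and bound ligands in 1 of 12, with 3 higher (Bmp4, Tlr2 and Tlr4). The part of the hematopoietic-marker cells of old OPr in these higher genes was not tested.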

How the data were processed

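Single cells were sequenced by the authors with a modified Smart-Seq2 protocol. The authors aligned reads with GSNAP to GRCm38.p4 and used HTSeq, ignoring strand, for the gene counts they deposited, which are not normalized. Age, gate and cluster number of each cell came from its labels, and 0 columns were unmapped. Counts of 45771 nuclear genes were summed per group and scaled to CPM, and 37 mitochondrial genes stayed out of totals. 0 cells had counts identical to another cell. Intervals were exact Poisson (levels), Clopper-Pearson (shares) and conditional binomial (ratios). Members and lists were chosen with earlier results of these data known. Genes named were the members, the listed genes and, for each member, the 3 genes with the highest Pearson correlation among genes carried by at least 10% of mesenchymal cells. Calculations used edgeR 4.0.16 in R 4.3.3 for TMM and otherwise Python 3.11.15 with scipy 1.17.1, pandas 2.3.3, matplotlib 3.10.9 and numpy 2.4.6, and were tested on simulated data. Alternatives were TMM, median of ratios, mitochondrial counts in the total, means over cells, thinning to 100000 counts, a pseudocount of 0.1 CPM, no filter, each library-number range, identity groups, Spearman correlation, and leaving out the richest cell of each group, hematopoietic-marker cells or clusters E1 and E2. No doublet caller was run.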

Additional observations from a re-analysis of the deposited data

How the results depend on the processing

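No paired analysis was possible because the labels name no mouse and each age of a population is 1 sample. Of 134 counts of called members recomputed under the alternatives, 117 were within 1.5 times the main count and 17 moved. Of 14 shares of all genes called, 3 moved without the filter on low counts, and of 54 correlations 8 moved, all by Spearman. Of 891 member ratios, 10 called ratios changed sign, 552 moved beyond their counting interval and 329 did not. These intervals lack the added 1 CPM, and some main ratios of low levels lie outside their own. Aspn in old over young MSC-L, at -4.23, had an interval of -6.15 to -4.62.

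In library-number range 1, old MSC-L had 1 member lower and 2 higher, old MSC-S had 2 higher, and Aspn in MSC-L was reversed, at 0.62. In the same range the AEC ratios of Dcn (-0.66), Lum (-2.87) and Omd (-0.99) were reversed, against 1.05, 3.02 and 3.53 over all cells. In range 2, old MSC-S had 3 lower and 0 higher, Omd in MSC-S was at -1.56, old mOPr had 1 member higher, old OPr 1 higher, and young OPr 2 higher than young MSC-S. Without the richest cell of each group, no member (0) was lower in old MSC-S, 2 were higher in young OPr than MSC-S, and Lum (-0.14) and Omd (-0.27) in AEC were reversed. Means over cells and thinning also gave 0 and 0 lower members in old MSC-S. By identity group, old MSC-L-like cells had 1 member lower, old MSC-S-like cells 0 higher with Omd at -0.53 and Fmod at -2.09, and OPr-like cells had Dcn at 0.90 and Bgn at -1.24. Without hematopoietic-marker cells, OPr-like cells had 3 members lower and 1 higher, with Dcn at 1.36 and the summed members at 0.13, both reversed. OPr without these cells and without M1 and M2 cells had 1 member higher. The cause was not tested for any of these.

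Leaving out M1 and M2 cells from mOPr and OPr, and hematopoietic-marker cells together with these or by identity group, was chosen after seeing the data. The levels of mOPr cells within M5 and of SEC without mesenchymal markers were also added after seeing the data. mOPr has no identity group of its own and so no value under that alternative. Thinning left out 7 shallow cells. Levels at a few cells, such as Aspn in MSC-L and OPr or Omd in MSC-S, rest on so few carriers that single cells set them. Mice cannot be told apart, so spread between animals is unknown for every value, and age cannot be told apart from any other difference between the sorted samples.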
